A study of Homo sapiens with 18 samples.

Results

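The genes described here encode the proteins of complement, coagulation and fibrinolysis, a set of 46 listed genes of which 44 had a probe set that lists the gene alone, out of 19775 genes measured in the same way. Each gene was represented by its brightest probe set, that with the highest mean log2(intensity + 1) over all 18 arrays. The listed genes F2RL1 and SERPINB2 were not analysed here. Gene expression was measured with Affymetrix U133 Plus 2.0 arrays in SKOV-3 cells, an established line of ovarian carcinoma, in 6 groups of 3 arrays. The LHR- group held control SKOV-3 cells without luteinizing hormone receptor (LHR). The study's methods name this control as the parent line, while its figure legends name it as mock-transfected cells. The LHR+ group held SKOV-3 cells that had been stably transfected to express the receptor. Neither group had received luteinizing hormone (LH). The groups LH1, LH4, LH8 and LH20 held LHR+ cells exposed to LH at the 50 ng/ml stated in the labels, over 1, 4, 8 or 20 h. Whether the LHR+ cells were 1 clone or a pool is not given in the sources used here. There were no LHR- cells with LH and no untreated LHR+ cells matched to each time, so that LH and time in culture cannot be told apart, and a single transfected line stands for the receptor. A difference in bulk RNA also cannot be told apart between fewer cells that make a transcript and less of it per cell.

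Complement is a cascade of plasma proteases that coats targets with fragments of C3 and ends in a pore in the membrane, and nucleated cells carry surface proteins that stop it on their own membrane. Coagulation starts when tissue factor on a cell meets factor VII, runs to thrombin, which also signals through protease-activated receptors, and ends in fibrin. Fibrinolysis then dissolves fibrin through plasmin, which is made from plasminogen by the activators PLAT and PLAU, and PLAU held at the cell surface by its receptor PLAUR is known for its role in invasion by carcinoma cells. Most plasma members of these cascades are made by the liver, whereas the membrane regulators are made by many cell types. LHR is a receptor whose best known route of signaling is cyclic AMP.

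The 18 arrays had median intensities between 46.9 and 57.9 over their 54675 probe sets, and 31.0% to 34.5% of the intensities of an array lay under 16. For 16 of the 18 arrays the most similar array was of the same group, and the exceptions were LHR+ replicate 1 and LH1 replicate 2. The probe set of LHCGR, the receptor gene, read between 0.196 and 4.11 in all arrays and was not called in LHR+ against LHR- cells, so that it does not check the receptor label. Where its probes lie relative to the transfected sequence is not given in the sources used here. Of 10 markers of epithelial and ovarian carcinoma cells, 6 to 7 lay above the median gene in each group. None of 7 hepatocyte, 5 endothelial, 3 leukocyte and 4 platelet markers measured did so in any group. Hepatocyte markers summed to between 81.1 and 236 per array, against 22461 to 35846 for the epithelial list.

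The members differed widely in signal. The median gene had a mean log2(intensity + 1) of 7.55, an intensity of 186, and 16 of the 44 members were brighter than that. They were the complement regulators CD46, CD55 and CD59 and the protease CFD, the coagulation initiator F3 (tissue factor) and F8, the thrombin receptor F2R, the anticoagulants THBD, PROCR, PROS1, TFPI and TFPI2, the fibrinolysis genes PLAT, PLAU and PLAUR, and the serpin SERPINE2. The other 28 were dimmer, and 7 of them had a mean intensity below 16 in every group. Probe sets differ in how brightly they read the same amount of RNA, so the order of genes in the plot of levels is no order of RNA amounts.

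**Figure D1:**
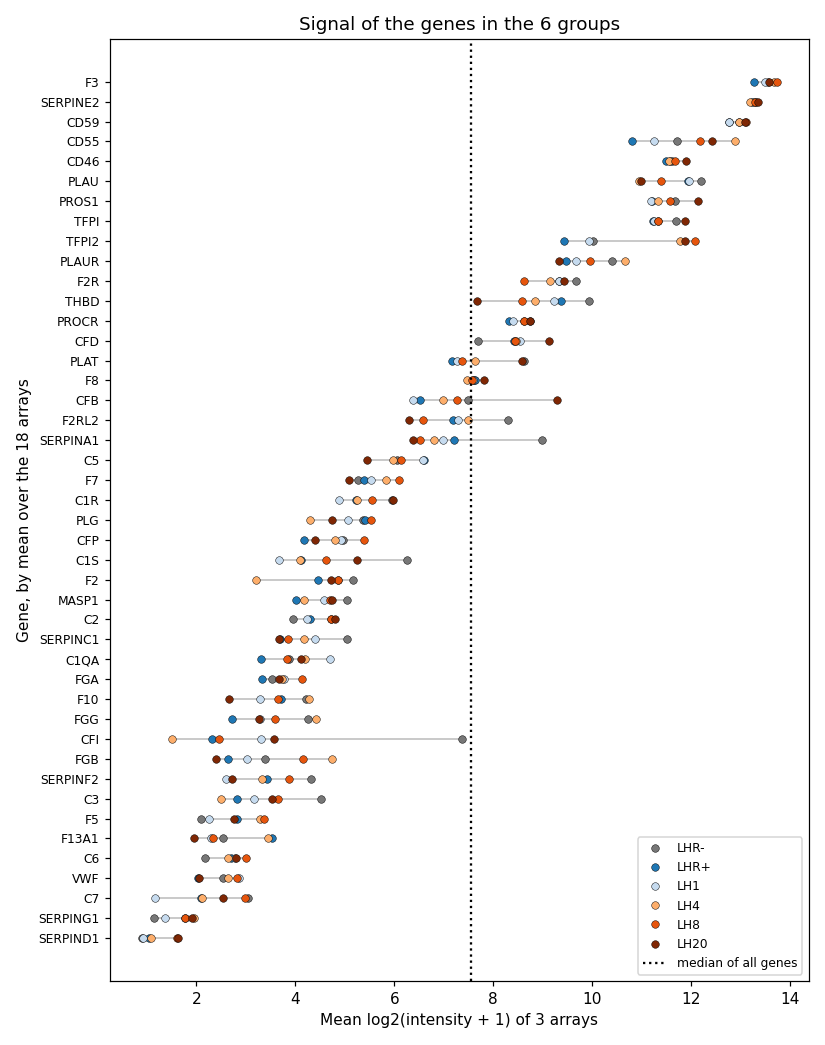
Mean log2(intensity + 1) of 3 arrays on the x axis for each of the 44 genes on the y axis, 1 point per group, with a dotted line at the median of all genes (7.55). The points of CFI spread widely because the LHR- group lies near the median gene and the other 5 groups far below it, while the points of SERPINE2 and F3 lie close together.

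A gene was called as changed where limma gave p under 0.05 and an adjusted p under 0.1, the fold change between geometric means was at least 2, and all 3 arrays of one group lay above all 3 of the other. Expression of the receptor without LH went with 5 members called, and all of them fell in LHR+ cells. They were the proteases and regulators C1S, CFI, PLAT, F2RL2 and SERPINA1. That is 11.4% of the 44 members, where 4.63% of all genes were called and 2.06% were called down. The median log2 fold change of the members was -0.50, against -0.00 for all genes, and 33 of 44 lay below 0. With the fold minimum left out, 15 members passed, 1 higher and 14 lower in LHR+ cells, where 18.6% of all genes passed.

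At each LH time with a call, more members were called up than down. No member was called after 1 h, where 0.324% of all genes were called, and 3 had an unadjusted limma p under 0.05. At 4 h CD55, TFPI2 and PLAUR rose and PLAU fell, so that 4 of 44 members (9.09%) were called, against 2.23% of all genes. Of all genes 1.3% were called up and 0.925% down at 4 h. At 8 h CD55 and TFPI2 were called, both up (4.55% of members), against 1.73% of all genes called in either direction and 1% called up. At 20 h CFB, CD55, TFPI2 and PLAT rose and C5 and THBD fell, which made 6 called members (13.6%) against 7.72% of all genes. Of all genes 3.83% were called up and 3.88% down at 20 h. The median log2 fold change of the members was 0.06, 0.14, 0.35 and 0.28 at 1, 4, 8 and 20 h, against -0.01, -0.01, -0.01 and -0.00 for all genes. All 5 comparisons share the LHR+ arrays. Without the fold minimum 1, 6, 12 and 16 members passed at 1, 4, 8 and 20 h, against 0.865%, 10.9%, 10.9% and 34% of all genes. In total 12 members (27.3%) were called in at least 1 of the 5 comparisons and 32 in none, where 12.5% of all genes were called in at least 1. The members were chosen with earlier results of these data known, so that these shares are a description and no test of the set.

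**Figure D2:**
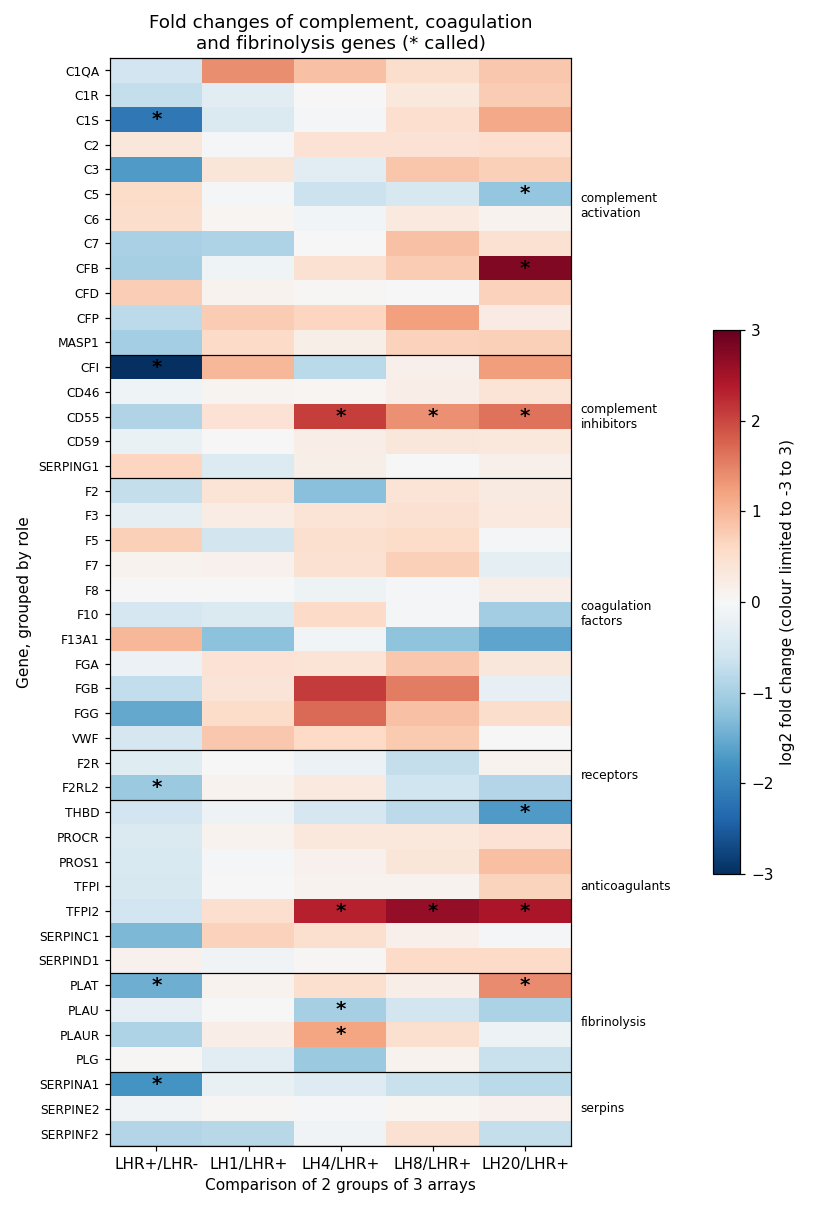
Log2 fold change (colour, limited to -3 to 3) of the 44 genes (rows, by role) in LHR+ against LHR- cells and at 4 LH times against LHR+ cells (columns), with an asterisk for each called gene. The 5 asterisks of the first column mark genes that fell, the LH1 column has none, and CD55 and TFPI2 carry one at 4, 8 and 20 h.

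Among the 12 genes of complement activation, the largest change was that of CFB, which supplies the protease subunit of the alternative pathway's C3 convertase. CFB read 186, 197 and 158 in the LHR- arrays and 72.4, 141 and 72.0 in the LHR+ arrays. After LH it read 78.8, 88.8 and 79.3 at 1 h, 144, 129 and 105 at 4 h and 145, 149 and 167 at 8 h. At 20 h it read 510.0, 745 and 626. All LH20 arrays lay above every array of the other groups, and LHR+ replicate 2 lay apart from the other two of its group. CFB rose 6.80-fold from LHR+ to LH20 (log2 fold change 2.77 ± 0.22, adjusted p = 1.01e-06), and the step from 8 to 20 h was itself called (log2 fold change 2.01 ± 0.22, adjusted p = 4.2e-05). In LHR+ against LHR- cells CFB was 1.98-fold lower with the triplicates separated (log2 fold change -0.99 ± 0.22, adjusted p = 0.00913), just short of the fold minimum, and it was called down there when the arrays were brought to equal medians or quantiles.

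CFD, the protease that cleaves factor B, was higher with the receptor and higher again at 20 h. It read 198, 209.6 and 213 in LHR- arrays, 378, 331 and 322 in LHR+ arrays and 496, 555 and 633 at 20 h. In between it read 396, 351 and 361 at 1 h, 367, 303 and 388 at 4 h and 364, 309.8 and 366 at 8 h. The LHR- arrays were the lowest and the LH20 arrays the highest, neither overlapping another group, while the other 4 groups overlapped. CFD was 1.66-fold higher in LHR+ than in LHR- cells (log2 fold change 0.73 ± 0.12, adjusted p = 0.000736) and 1.63-fold higher at 20 h than in LHR+ cells (log2 fold change 0.70 ± 0.12, adjusted p = 0.000389), both under the fold minimum. At 1, 4 and 8 h its log2 fold change lay between 0.01 and 0.11.

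C1S, a protease of the C1 complex that starts the classical pathway, fell with the receptor. It read 70.4, 68.7 and 89.9 in LHR- arrays and 30.5, 7.14 and 19.3 in LHR+ arrays, with no overlap but a wide spread in LHR+ cells. C1S was 4.43-fold lower (log2 fold change -2.15 ± 0.66, adjusted p = 0.0469), and the call was lost without LHR+ replicate 2 (-1.60, adjusted p = 0.184), without LHR- replicate 3 (-2.02, adjusted p = 0.113) and with the methods' ANOVA in place of limma (adjusted p = 0.151). It read 2.99, 13.1 and 35.8 at 1 h, 18.3, 18.9 and 11.8 at 4 h, 34.8, 12.9 and 28.2 at 8 h and 28.4, 40.9 and 43.1 at 20 h of LH. All of these groups overlapped the LHR+ arrays and C1S was not called in them, at 20 h with log2 fold change 1.13 ± 0.66, adjusted p = 0.25. C1R, its partner in the complex, had a log2 fold change of -0.72 in LHR+ against LHR- cells and was not called (adjusted p = 0.205).

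C5, whose cleavage opens the terminal pathway, fell at 20 h. It read 60.5, 56.9 and 81.1 in LHR- arrays, 96.3, 119 and 77.9 in LHR+ arrays and 30.3, 51.4 and 50.2 at 20 h. At 1, 4 and 8 h it read 97.2, 86.8 and 99.7, then 59.1, 54.7 and 72.3, then 53.2, 73.3 and 84.0. The LH20 arrays lay below all others. C5 was 2.22-fold lower (log2 fold change -1.15 ± 0.23, adjusted p = 0.00173), with LH20 replicate 1 the lowest array. Without that array the difference fell short of the fold minimum (-0.91), as it did with a pseudocount of 16 (-0.93). The other 8 genes of this role, C1QA, C1R, C2, C3, C6, C7, CFP and MASP1, read between 0.264 and 78.3 in all arrays and were not called in any of the 5 comparisons. C3, the central protein of the cascade, read between 1.90 and 33.0.

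Of the 5 complement inhibitors, CD55 was the one called after LH, at 3 of the 4 times. CD55, also called decay-accelerating factor, is a membrane protein that speeds the breakup of C3 convertases. It read 3344, 3702 and 3059.6 in LHR- arrays and 1900.4, 1688 and 1801 in LHR+ arrays. It read 2409, 2632 and 2284 at 1 h and 7454, 7673 and 7610.1 at 4 h of LH. It then read 4305, 4433 and 5198 at 8 h and 5472, 5514 and 5537 at 20 h. The LHR+ arrays were the lowest of all and the LH4 arrays the highest, and no 2 of these 6 groups overlapped. CD55 rose 4.22-fold at 4 h (log2 fold change 2.08 ± 0.09, adjusted p = 9.56e-09), 2.58-fold at 8 h (log2 fold change 1.37 ± 0.09, adjusted p = 1.21e-06) and 3.07-fold at 20 h (log2 fold change 1.62 ± 0.09, adjusted p = 3.89e-08). At 1 h it was 1.36-fold higher (log2 fold change 0.44 ± 0.09, adjusted p = 0.0431), which passed the adjusted p but not the fold minimum, and it was the one member to do so. The step from 1 to 4 h was called (log2 fold change 1.64 ± 0.09, adjusted p = 1.86e-07), while that from 4 to 8 h was a lower level under the fold minimum (log2 fold change -0.71 ± 0.09, adjusted p = 0.000476). In LHR+ against LHR- cells CD55 was 1.87-fold lower (log2 fold change -0.90 ± 0.09, adjusted p = 1.53e-05), also under the fold minimum.

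CFI, the protease that cuts C3b and C4b with the help of cofactors, showed the largest fall of all members. It read 172, 176 and 147 in LHR- arrays and 5.24, 9.21 and 0.938 in LHR+ arrays. It read 5.39, 10.8 and 11.8 at 1 h, 0.411, 7.33 and 0.957 at 4 h and 4.33, 1.56 and 11.3 at 8 h of LH. In the LH arrays it lay between 0.411 and 22.0, so that no LHR+ array with or without LH came near an LHR- array. CFI fell 33.3-fold on the log2(intensity + 1) scale (log2 fold change -5.06 ± 0.79, adjusted p = 0.000651), a size that depends on the pseudocount, since it was -3.12 with a pseudocount of 16. LH did not bring it back in these data: at 20 h it read 12.9, 4.28 and 22.0 (log2 fold change 1.26 ± 0.79, adjusted p = 0.283) and was 13.9-fold below LHR- cells (log2 fold change -3.80 ± 0.79, adjusted p = 0.00196).

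By their brightest probe sets the other membrane regulators differed little. The dimmest set of CD59 was called up at 8 and 20 h, as given below. CD46, the cofactor that lets CFI cut C3b on the cell itself, read 3286, 2916 and 3243 in LHR- arrays and 2733, 2884 and 2986 in LHR+ arrays. It read 3309, 2633 and 3247 at 1 h, 2909, 3052 and 3035 at 4 h, 3289, 3002 and 3524 at 8 h and 3641, 3823 and 3931 at 20 h. The LH20 arrays lay above all others and the rest overlapped in part (log2 fold change 0.41 ± 0.09, adjusted p = 0.00454). CD59, which blocks the membrane pore, read 7732, 8174 and 8189 in LHR- arrays and 6672, 7055 and 7251 in LHR+ arrays. It read 7348, 5947 and 7599 at 1 h, 7727, 7973 and 8338 at 4 h, 8909, 9170.1 and 8597 at 8 h and 8317, 8701 and 9250.5 at 20 h. Here the LHR+ arrays lay below those of every group but LH1 (log2 fold change 0.32 ± 0.09, adjusted p = 0.0123). Both differences at 20 h were under the fold minimum, at 1.32 and 1.25-fold. In LHR+ against LHR- cells the 95% interval of the log2 difference was -0.33 to 0.07 for CD46 and -0.39 to -0.01 for CD59. SERPING1, the inhibitor of the C1 proteases, read between 0.565 and 8.68 and was not called.

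**Figure D3:**
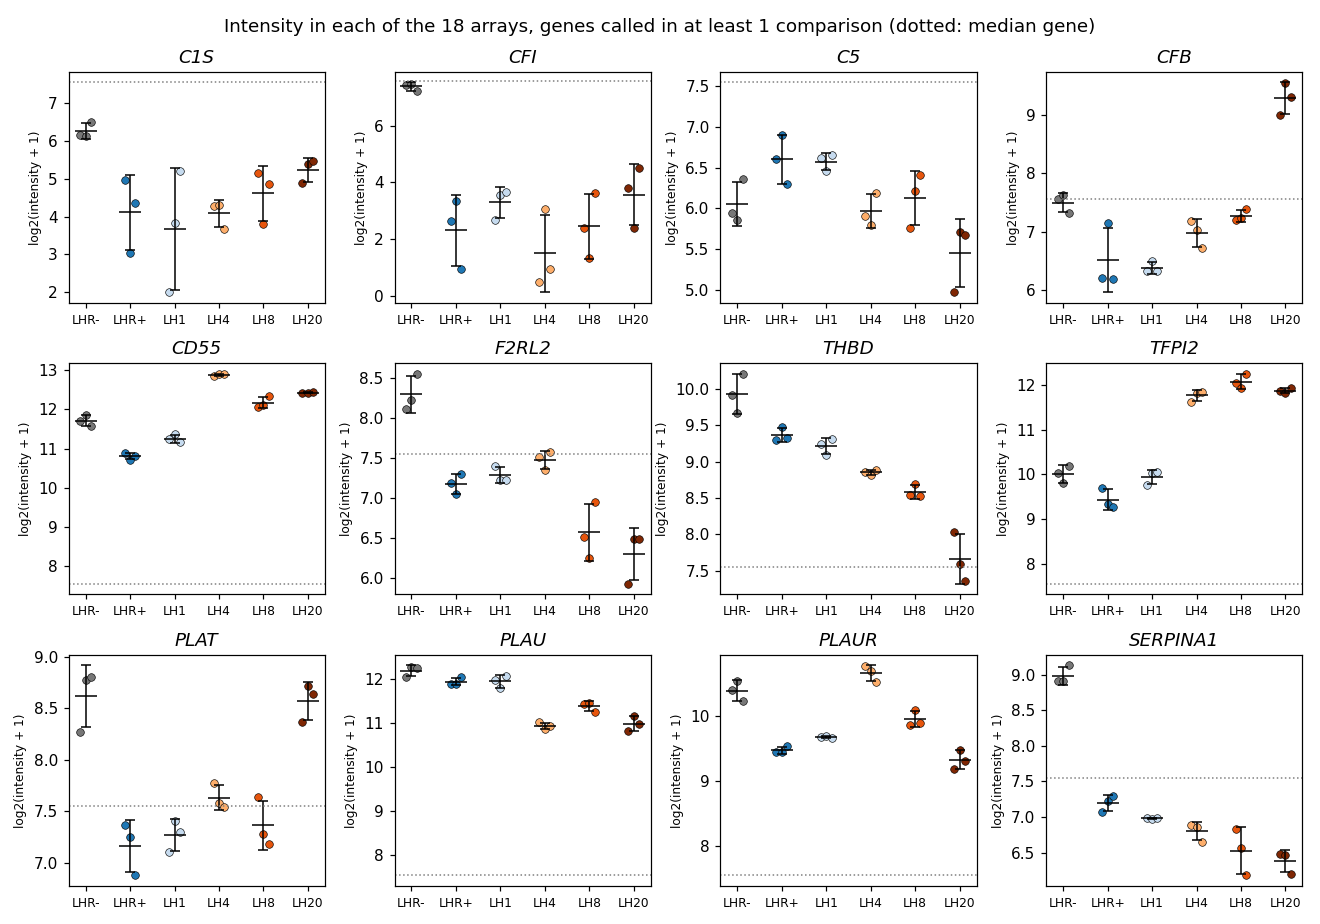
Log2(intensity + 1) of each of the 18 arrays (points, 3 per group) for the 12 genes called in at least 1 of the 5 comparisons, with the group mean and SD as lines and the median of all genes dotted. CD55, TFPI2 and PLAUR have their LH4 points above the LHR+ points, the LH20 points of CFB stand above all others, and CFI and SERPINA1 have their LHR- points above all others.

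None of the 11 coagulation factors was called by its brightest probe set in LHR+ against LHR- cells or after LH against LHR+ cells. Of all genes, 4.63% were called with the receptor and 0.324%, 2.23%, 1.73% and 7.72% at 1, 4, 8 and 20 h. With 11 genes, 0 called lies near these shares. Dim probe sets of FGB and VWF were called, as given below. FGA was called at 4 and 8 h with the mean of all its probe sets. F3, tissue factor, was the one of the 11 factors with a strong signal. It read 11648, 12638 and 11546 in LHR- arrays and 10195, 10230.2 and 9209 in LHR+ arrays. It read 11882, 10351 and 12676 at 1 h and 12758, 12747 and 13539 at 4 h. At 8 h it read 12656, 14622 and 13544 and at 20 h 11636, 12224 and 12614. The LHR+ arrays were the lowest, and each LH group lay above them. The differences were 1.32-fold at 4 h (log2 fold change 0.40 ± 0.09, adjusted p = 0.0107), 1.38-fold at 8 h (log2 fold change 0.46 ± 0.09, adjusted p = 0.00472) and 1.23-fold at 20 h (log2 fold change 0.30 ± 0.09, adjusted p = 0.0172), all short of the fold minimum. In LHR+ against LHR- cells F3 was 1.21-fold lower (log2 fold change -0.27 ± 0.09, adjusted p = 0.0488).

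F8, a cofactor in the activation of factor X, lay near the median gene, between 141 and 253, with log2 fold changes against LHR+ cells from -0.15 to 0.20. The other 9 factors, F2, F5, F7, F10, F13A1, FGA, FGB, FGG and VWF, read between 0.574 and 99.1. Prothrombin, F2, was called down in the step from 1 to 4 h, from 43.5, 26.6 and 19.0 to 2.68, 12.1 and 15.4 (log2 fold change -1.65 ± 0.52, adjusted p = 0.0901). That call was lost in most alternative settings, among them the exclusion of LH4 replicate 1 (-0.99, adjusted p = 0.28). The beta chain of fibrinogen, FGB, read 1.06, 16.5 and 5.71 in LHR+ arrays and 22.7, 27.2 and 27.8 at 4 h, without overlap, but missed the adjusted p (log2 fold change 2.10 ± 0.80, adjusted p = 0.152).

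Of the protease-activated receptors, F2RL2, which acts as a cofactor for thrombin at other receptors of the family, fell with the receptor. F2RL2 read 277, 298 and 375 in LHR- arrays and 144, 131 and 157 in LHR+ arrays. It read 168, 148 and 149 at 1 h, 181, 163 and 189 at 4 h, 90.1, 74.9 and 123 at 8 h and 59.8, 88.5 and 88.4 at 20 h. The LHR- arrays were the highest and the LH8 and LH20 arrays the lowest, below all LHR+ arrays. F2RL2 was 2.18-fold lower in LHR+ than in LHR- cells (log2 fold change -1.12 ± 0.19, adjusted p = 0.00107), and without LHR- replicate 3 the difference was -0.99, just under the fold minimum. With the mean of its probe sets it was -0.70 (adjusted p = 0.286) and not called. At 20 h it was 1.84-fold below LHR+ cells (log2 fold change -0.88 ± 0.19, adjusted p = 0.00259), under the fold minimum, and 4.01-fold below LHR- cells (log2 fold change -2.00 ± 0.19, adjusted p = 2.08e-06).

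F2R, the main thrombin receptor of many cells, read 849, 854 and 757 in LHR- arrays and 695, 553 and 684 in LHR+ arrays. It read 609.5, 681 and 639 at 1 h, 549, 578 and 566 at 4 h, 362, 316 and 527 at 8 h and 772, 641 and 649 at 20 h. The LH8 arrays were the lowest, below all LHR+ arrays (log2 fold change -0.71 ± 0.16, adjusted p = 0.0133), and the LH20 arrays overlapped LHR+ cells again (log2 fold change 0.10 ± 0.16, adjusted p = 0.731). It was under the fold minimum in each comparison.

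Among the 7 anticoagulant genes TFPI2 rose from 4 h on and THBD fell at 20 h. TFPI2 encodes a secreted Kunitz-type inhibitor of plasmin and related proteases that sits in the extracellular matrix. It read 1044, 889 and 1170.3 in LHR- arrays and 827, 648 and 617 in LHR+ arrays. It read 863, 1038 and 1058 at 1 h and 3163, 3627 and 3699 at 4 h. It read 4250.1, 3879.9 and 4868 at 8 h and 3734, 3616 and 3927 at 20 h. From 4 h on every LH array lay above every LHR- and LHR+ array. TFPI2 rose 5.04-fold at 4 h (log2 fold change 2.33 ± 0.14, adjusted p = 1.25e-07), 6.23-fold at 8 h (log2 fold change 2.64 ± 0.14, adjusted p = 1.4e-07) and 5.43-fold at 20 h (log2 fold change 2.44 ± 0.14, adjusted p = 3.89e-08). The step from 1 to 4 h was called (log2 fold change 1.83 ± 0.14, adjusted p = 2.5e-06) and the 2 later steps were not. At 1 h the difference was 1.42-fold (log2 fold change 0.51 ± 0.14, adjusted p = 0.194), with the triplicates separated.

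THBD, thrombomodulin, binds thrombin on the cell surface and turns it to the activation of protein C. It read 966, 809 and 1179.6 in LHR- arrays and 626, 709 and 638 in LHR+ arrays. It read 604, 546 and 636 at 1 h, 461, 449.8 and 473 at 4 h, 371, 414 and 366 at 8 h and 262, 193 and 163 at 20 h. The LHR- arrays were the highest and the LH20 arrays the lowest, and of neighbouring groups in this order only LHR+ and LH1 overlapped. THBD fell 3.24-fold at 20 h (log2 fold change -1.70 ± 0.16, adjusted p = 3.18e-06). It was 1.42-fold lower at 4 h (log2 fold change -0.51 ± 0.16, adjusted p = 0.0691) and 1.71-fold lower at 8 h (log2 fold change -0.78 ± 0.16, adjusted p = 0.00812), under the fold minimum at both times.

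By their brightest probe sets the other cell-made anticoagulants were higher at 20 h than in LHR+ cells, below the fold minimum. A dimmer set of TFPI was called up at 4 and 20 h, as given below. PROS1, protein S, the cofactor of activated protein C, read 3159.8, 3228 and 3363 in LHR- arrays and 2332, 2422 and 2374 in LHR+ arrays. It read 2215, 2285 and 2482 at 1 h, 2611, 2655 and 2479 at 4 h, 3062, 2913 and 3180.1 at 8 h and 4166, 4476 and 4805 at 20 h. The LH20 arrays lay above all others, and the difference at 20 h was 1.88-fold (log2 fold change 0.91 ± 0.07, adjusted p = 6.25e-07), close to the fold minimum. TFPI, the inhibitor of tissue factor with factor VIIa, read 3709.8, 3124 and 3144 in LHR- arrays and 2413, 2371 and 2397 in LHR+ arrays. It read 2356, 2709 and 2247 at 1 h, 2268, 2790.1 and 2665 at 4 h, 2467, 2459 and 2824 at 8 h and 3749, 3883 and 3691 at 20 h. The LHR+, LH1, LH4 and LH8 arrays lay together, with LH20 above them (log2 fold change 0.66 ± 0.10, adjusted p = 0.000224). The LH20 arrays of TFPI overlapped its LHR- arrays (log2 fold change 0.19 ± 0.10, adjusted p = 0.192). PROCR, the receptor of protein C, read 419, 469.7 and 401 in LHR- arrays and 308, 325 and 314 in LHR+ arrays. It read 305, 351 and 362 at 1 h, 437, 412 and 337 at 4 h, 317, 459 and 412 at 8 h and 398, 453 and 429.7 at 20 h. Its LHR- and LH20 arrays overlapped each other and lay above all LHR+ arrays (log2 fold change 0.43 ± 0.13, adjusted p = 0.026). Each of these 3 genes was also lower in LHR+ than in LHR- cells, with log2 fold changes of -0.45, -0.47 and -0.44. The liver anticoagulants SERPINC1 (antithrombin) and SERPIND1 (heparin cofactor II) read between 0.363 and 42.9 and were not called.

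In fibrinolysis the plasminogen activator PLAU and its receptor PLAUR moved in opposite directions at 4 h. PLAU, the urokinase-type activator, read 4251, 4954 and 4861 in LHR- arrays and 3821, 3797 and 4209 in LHR+ arrays. It read 4039, 3548 and 4295 at 1 h and 2078, 1868 and 1945 at 4 h. It read 2773, 2828 and 2453 at 8 h and 1819, 2290.2 and 2011 at 20 h. The arrays from 4 h on lay below all LHR+ arrays. PLAU fell 2.01-fold at 4 h (log2 fold change -1.00 ± 0.10, adjusted p = 3.11e-05), a difference right at the fold minimum. The call was lost without LH4 replicate 2 (-0.97), LH4 replicate 3 (-1.00) or LHR+ replicate 3 (-0.96), and with a pseudocount of 16 (-1.00). At 20 h PLAU was 1.94-fold lower (log2 fold change -0.96 ± 0.10, adjusted p = 1.37e-05), which was not called. The step from 1 to 4 h was called at -1.01 (adjusted p = 4.37e-05), also right at the minimum.

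PLAUR, the receptor that holds PLAU at the cell surface, read 1349, 1490.5 and 1197 in LHR- arrays and 695, 693 and 742 in LHR+ arrays. It read 817, 826 and 809.5 at 1 h and 1739, 1648 and 1479 at 4 h. It read 929, 1091 and 952 at 8 h and 584, 714 and 632 at 20 h. The LH4 arrays lay far above the LHR+ arrays and close to the LHR- arrays, while the LH20 arrays overlapped the LHR+ arrays. PLAUR rose 2.28-fold at 4 h (log2 fold change 1.19 ± 0.10, adjusted p = 4.08e-06). The difference was 0.48 at 8 h (adjusted p = 0.0101) and -0.15 at 20 h (adjusted p = 0.336). In LHR+ against LHR- cells PLAUR was 1.89-fold lower (log2 fold change -0.92 ± 0.10, adjusted p = 3.49e-05), just under the fold minimum.

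PLAT, the tissue-type activator, was low in LHR+ cells and back at the LHR- level at 20 h of LH. It read 308, 437 and 447 in LHR- arrays and 164, 151 and 117 in LHR+ arrays. It read 137, 169 and 156 at 1 h, 217, 191 and 186 at 4 h, 198, 154 and 144 at 8 h and 329, 421 and 397 at 20 h. The LHR- and LH20 arrays overlapped with each other and lay above all arrays of the other 4 groups. PLAT fell 2.74-fold with the receptor (log2 fold change -1.45 ± 0.18, adjusted p = 8.37e-05) and rose 2.66-fold at 20 h (log2 fold change 1.41 ± 0.18, adjusted p = 4.14e-05), with the step from 8 to 20 h called as well (log2 fold change 1.21 ± 0.18, adjusted p = 0.00029). The LH20 and LHR- groups differed by -0.04, with a 95% interval of -0.42 to 0.34. Both changes of PLAT rest in part on the same LHR+ arrays. PLG, plasminogen itself, read between 8.11 and 56.3 and was not called.

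Among the serpins, SERPINA1, which encodes alpha-1-antitrypsin, the main plasma inhibitor of neutrophil elastase, fell with the receptor. It read 481, 481 and 561 in LHR- arrays and 133, 148 and 156 in LHR+ arrays, far apart. It read 126, 124 and 126 at 1 h, 117, 116 and 99.6 at 4 h, 113, 94.0 and 71.5 at 8 h and 87.8, 87.1 and 72.5 at 20 h. Every LH array lay below all LHR+ arrays. SERPINA1 fell 3.45-fold in LHR+ cells (log2 fold change -1.79 ± 0.14, adjusted p = 1.75e-06). At 20 h it was 1.77-fold lower than in LHR+ cells (log2 fold change -0.82 ± 0.14, adjusted p = 0.000594), under the fold minimum. SERPINE2, protease nexin-1, an inhibitor of thrombin and urokinase, read 9653, 10652 and 10388 in LHR- arrays and 8749, 9735 and 10269 in LHR+ arrays. It read 10238, 8569.8 and 10957 at 1 h, 8775, 9236 and 9923 at 4 h, 9913, 9782 and 10258 at 8 h and 10080.3, 10618 and 10693 at 20 h. Its log2 fold changes lay between -0.10 and 0.13, with each group overlapping the one it was compared with. SERPINF2, the plasmin inhibitor, read between 2.02 and 30.9 and was not called.

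LHR+ cells after 20 h of LH were also set against LHR- cells, which have neither receptor nor LH. Here 9 of 44 members (20.5%) were called, against 10.3% of all genes. CFB (1.78), CFD (1.43) and TFPI2 (1.87) were higher in LH20 cells. CFI (-3.80), SERPINA1 (-2.61), THBD (-2.26), F2RL2 (-2.00), PLAU (-1.20) and PLAUR (-1.06) were lower. CFD, PLAU and PLAUR were called over the whole span with no call in LHR+ against LHR- or in LH20 against LHR+ cells, and the call of PLAUR was lost without LH20 replicate 1 or LHR- replicate 2. With the mean of all probe sets of a gene, F2RL2 was at -0.70 (adjusted p = 0.195) and PLAUR at -0.97 in this comparison, and neither was called. CD55 was 1.64-fold higher in LH20 than in LHR- cells (log2 fold change 0.71 ± 0.09, adjusted p = 3.45e-05), under the fold minimum. C1S was 2.03-fold lower (log2 fold change -1.02 ± 0.66, adjusted p = 0.293) and was not called. Between neighbouring times, 4 of 44 members were called from 1 to 4 h (9.09% against 1.79% of all genes). CD55 and TFPI2 rose, and PLAU and F2 fell. None was called from 4 to 8 h (against 1.31%). In that step 9 members had an unadjusted limma p under 0.05. An adjusted limma p under 0.1 was reached by 7 members, against 8.05% of all genes. From 8 to 20 h CFB and PLAT were called, both up (4.55% against 4.59%, or 2.36% called up).

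The sequence before the transcription start is shown for the 4 members called together at 4 h and for CFB, the member with the largest rise at 20 h. The 250 bases before the start given by RefSeq on GRCh38.p14 were searched on both strands for 5 motifs. These were TGACGTCA as the cyclic AMP response element, its shorter core TGACG (which every full element also contains), the AP-1 element spelled TGAGTCA, the GC box spelled GGGCGG and the TATA box spelled TATAAA. Capitals mark the core, the AP-1 element and the TATA box, and each run is written along the strand of the gene. The windows are chr1:207321428-207321677 (plus strand) for CD55, chr7:93890754-93891003 (minus) for TFPI2, chr19:43670170-43670419 (minus) for PLAUR, chr10:73910360-73910609 (plus) for PLAU and chr6:31945845-31946094 (plus) for CFB.
CD55: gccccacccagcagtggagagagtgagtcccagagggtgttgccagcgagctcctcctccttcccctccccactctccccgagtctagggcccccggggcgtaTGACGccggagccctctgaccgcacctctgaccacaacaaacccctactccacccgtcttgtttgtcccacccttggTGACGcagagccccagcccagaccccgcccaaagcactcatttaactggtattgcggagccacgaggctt
TFPI2: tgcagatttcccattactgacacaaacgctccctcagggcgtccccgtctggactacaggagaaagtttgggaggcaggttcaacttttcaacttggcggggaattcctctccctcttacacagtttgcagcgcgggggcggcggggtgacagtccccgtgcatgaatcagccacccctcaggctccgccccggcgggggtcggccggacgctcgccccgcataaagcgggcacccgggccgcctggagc
PLAUR: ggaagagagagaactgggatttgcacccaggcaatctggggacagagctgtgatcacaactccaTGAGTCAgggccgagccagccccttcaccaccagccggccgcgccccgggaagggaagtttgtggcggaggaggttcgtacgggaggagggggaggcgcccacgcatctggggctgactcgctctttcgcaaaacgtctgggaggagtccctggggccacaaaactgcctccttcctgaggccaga
PLAU: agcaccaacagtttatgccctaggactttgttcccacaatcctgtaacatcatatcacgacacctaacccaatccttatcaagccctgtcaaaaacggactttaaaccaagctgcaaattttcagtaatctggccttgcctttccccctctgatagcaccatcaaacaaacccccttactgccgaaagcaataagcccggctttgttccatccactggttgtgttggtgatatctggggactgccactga
CFB: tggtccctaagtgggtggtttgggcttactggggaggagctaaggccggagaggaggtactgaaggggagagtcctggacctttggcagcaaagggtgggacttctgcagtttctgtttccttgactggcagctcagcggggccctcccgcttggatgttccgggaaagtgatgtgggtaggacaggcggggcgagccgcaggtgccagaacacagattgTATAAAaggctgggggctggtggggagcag
CD55 held the core at 147 to 143 and again at 70 to 66 bases before the start, PLAUR held the AP-1 element at 186 to 180 bases and CFB held the TATA box at 30 to 25 bases. TFPI2 held the GC box, which is not marked, and CD55 held it on the other strand. Of the 44 members 35 had a promoter sequence, and among these 0 held the full response element, 7 its core, 3 the AP-1 element, 11 the GC box and 4 the TATA box. Of 27305 promoters of the same length, 1.77% held the full element, 21.7% its core, 4.16% the AP-1 element, 42.3% the GC box and 11.1% the TATA box. A match describes letters in this window and is not a measured site.

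Several members could be compared over more than 1 probe set. The 44 members had 87 probe sets, with over 1 for 25 of them, and here each set was tested in a fit over all 41097 probe sets that list a single gene. All 3 sets of CD55 were called up at 4 h, with log2 fold changes of 2.08, 1.81 and 1.72, and the 2 dimmer ones were also called down in LHR+ against LHR- cells, at -1.26 and -1.27. Both sets of TFPI2 were called, the dimmer one with larger changes (3.31 at 4 h, 3.31 at 8 h and 2.81 at 20 h). All 3 sets of THBD were called down at 20 h. The second set of CFI was called down with the receptor at -2.10, and the second brightest of SERPINA1 at -1.94.

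PLAUR was split between its probe sets. The second set rose at 4 h by 1.18 and was called, while the dimmest had 0.20 at 4 h (adjusted p = 0.537) and was called down in LHR+ against LHR- cells at -1.20. The second set of PLAU was not called at 4 h (-0.92) and was called down at 20 h (-1.24), the reverse of the brightest. A dimmer set of TFPI was called up at 4 h (1.08) and at 20 h (1.50), where the brightest was not. The dimmest set of CD59 was called up at 8 h (1.20) and 20 h (1.19), where the 4 other sets of that gene were not. A dim set of FGA, the alpha chain of fibrinogen, rose from a mean of 2.86 in LHR+ arrays to 34.7 at 4 h (3.60, adjusted p = 0.011) and 37.0 at 8 h (3.67, adjusted p = 0.0107), where the brightest set of FGA had 0.40 at 4 h (adjusted p = 0.733). The second sets of C1S, F2RL2 and CFB had group means of at most 11.3, 1.22 and 5.10 in the comparisons in question and were not called. Dim sets of VWF, FGB, PLG and SERPINC1 were called where the brightest set was not, and 2 sets of PLG were called in opposite directions at 20 h.

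**Figure D4:**
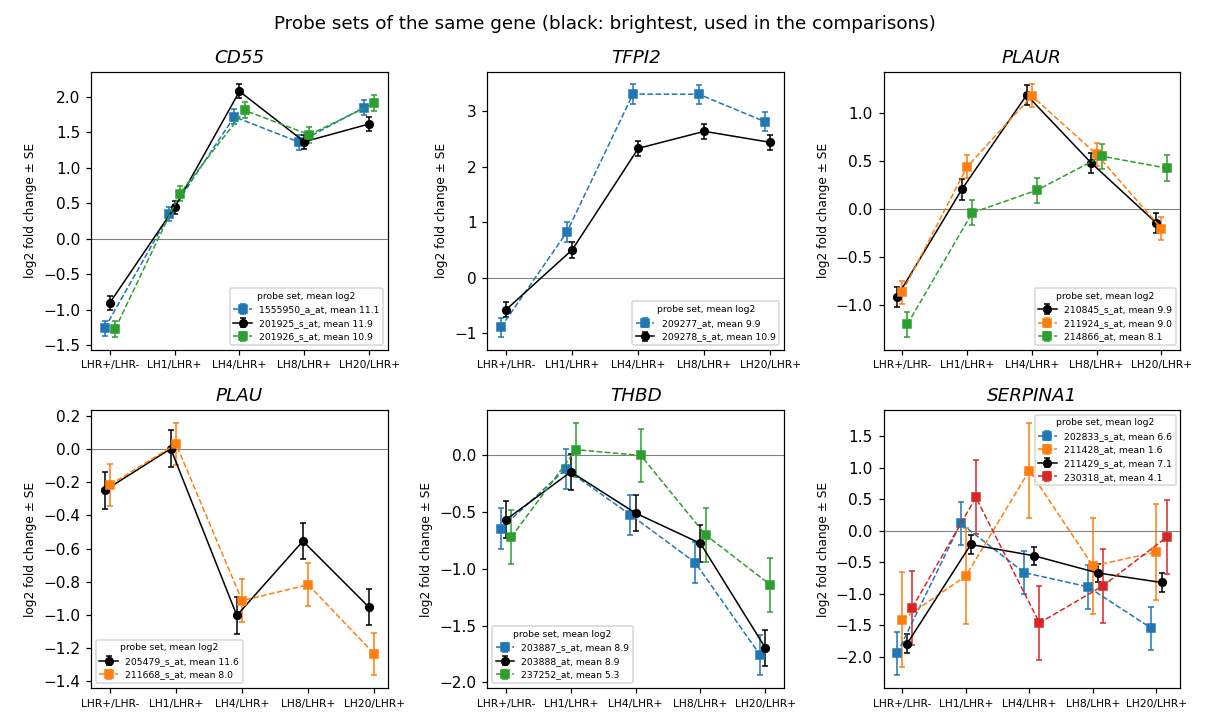
Log2 fold change ± SE (y axis) of each probe set of CD55, TFPI2, PLAUR, PLAU, THBD and SERPINA1 in the 5 comparisons (x axis), with the brightest set in black. The sets of CD55 and TFPI2 follow each other, and 1 set of PLAUR stays near 0 at 4 h where the other 2 rise to 1.19 and 1.18.

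Of 43 other listed genes of the same pathways 40 were measured. None was called in LHR+ against LHR- cells (4 with an unadjusted limma p under 0.05), at 1 h (3) or at 8 h (2). Of all genes 4.63%, 0.324% and 1.73% were called in these comparisons, so that 0 of 40 lies near the shares. At 4 h 1 of the 40 was called (2.5%), near the 2.23% of all genes. KLKB1, prekallikrein, fell at 4 h, from 346, 458 and 369 in LHR+ arrays to 119, 128 and 133 (log2 fold change -1.61 ± 0.21, adjusted p = 0.000215), and read 308, 388 and 279 at 20 h, within reach of the LHR+ arrays. At 20 h 3 rose and 1 fell, and these 4 of 40 (10%) lie near the 7.72% of all genes called. PROC, protein C, read 142, 184 and 155 in LHR+ arrays and 399.9, 386 and 434 at 20 h (log2 fold change 1.34 ± 0.24, adjusted p = 0.000696). C1RL, a protease related to C1R, read 389, 431 and 349 in LHR+ arrays and 818, 747 and 782 at 20 h (log2 fold change 1.01 ± 0.10, adjusted p = 8.33e-06). C9 rose and COLEC12, a membrane collectin, fell among dim readings (1.82 and -1.11). Over the 40 genes the log2 fold changes had a median of 0.01 with the receptor and 0.07, 0.04, 0.05 and 0.09 at 1, 4, 8 and 20 h.

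Markers of other cell types that make these proteins were dim throughout but moved in part at 20 h. The 4 platelet markers summed to 45.4 to 75.4 in LHR+ arrays and 114 to 194 at 20 h, where ITGA2B and PF4 were called up, and GP9 and PPBP read at most 13.2. The 7 hepatocyte markers summed to 114 to 145 in LHR+ arrays and 151 to 236 at 20 h, where TF (transferrin) was called up and ALB read 51.3, 21.7 and 18.3. The 10 markers of epithelial and ovarian carcinoma cells, which are bright here, summed to 23593 to 25664 in LHR+ arrays and 34641 to 35846 at 20 h, without overlap. ERBB2 (1.29) and CDH1 (1.09) were called up and WT1 (-1.63) down at 20 h. In LHR+ against LHR- cells EPCAM (-1.51) was called down and WT1 (1.39) up, while the summed level of the list overlapped (25296 to 28706 in LHR- arrays). The part of any of these lists in the changes of the members was not tested.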

How the data were processed

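RNA from 18 SKOV-3 cultures in 6 groups of 3, which the study's methods call independent replicates, was hybridized to U133 Plus 2.0 arrays, and groups were taken from the sample labels. The authors deposited 1 linear intensity per probe set and array. The labels name PLIER for the summary of probes and the study's methods name RMA, while version, background correction and scaling are not given in the sources used here. The array medians differed little, so no further normalization or filter was applied.

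Of 54675 probe sets, 41097 list 1 gene, 1801 several and 11777 none in the annotation used. Each of 19775 genes was taken from its brightest probe set as log2(intensity + 1), so that changes of dim genes are understated. A mean per group was fitted over all 18 arrays and genes with limma 3.58.1 (lmFit and eBayes, default settings, no replicate block) in R 4.3.3 (data.table version 1.17.8 for reading), and figures were drawn with Python 3.11.15 and matplotlib 3.10.9. A call needed a limma p under 0.05, an adjusted p (Benjamini-Hochberg, all genes of the comparison) under 0.1, triplicates without overlap and at least a 2-fold difference, the thresholds of the study's methods. The limma fit took the place of their ANOVA and Mann-Whitney tests. An exact rank test of 3 against 3 arrays cannot go below a two-sided p of 0.1. This floor does not hold for the ANOVA, which is among the alternatives below. The values after ± are standard errors of the fit for log2 fold changes. The fit was tested on simulated data.

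The members and lists were chosen with earlier results of these data known. Values in every array are given for each member called in 1 of the 5 comparisons or above the median gene in every group, F2 and FGB were named after their values were seen, and the other members are given by counts and ranges. Alternatives were another pseudocount (16), genes above the median gene, 2 scalings, the mean of all probe sets, the 2 groups alone, no fold minimum, no separation, ANOVA, an intensity trend, a replicate block and the exclusion of each replicate. Promoters are those of RefSeq for GRCh38.p14. Some genes of these pathways are not reported here.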

Additional observations from a re-analysis of the deposited data

Results flagged for a closer look

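The differences between neighbouring LH times were tested for each member, and 6 were called. The step from 1 to 4 h had 4 of 44 members called (9.09%), against 1.79% of all genes. The step from 4 to 8 h had 0, against 1.31%. The step from 8 to 20 h had 2 (4.55%), which lies at the 4.59% of all genes. From 1 to 4 h the log2 difference was 1.64 for CD55, 1.83 for TFPI2, -1.01 for PLAU and -1.65 for F2. From 8 to 20 h it was 2.01 for CFB and 1.21 for PLAT. The value of PLAU lies at the fold minimum, and its call was lost when LH1 replicate 1, LH1 replicate 3 or LH4 replicate 2 was left out (-0.99, -0.95 and -0.97), with equal array medians (-0.98) and with the mean of all its probe sets (-0.98). The value of F2 comes from readings between 2.68 and 43.5, and its call was lost without LH4 replicate 1 (-0.99), without LH1 replicate 1 (-1.35), without LH1 replicate 2 (-1.69) or 3 (-1.92) and without LH4 replicate 2 (-1.90).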

How the results depend on the processing

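Of 532 repeats of single results of members under another setting, 498 kept direction and call, 34 kept the direction and lost the call, and 0 reversed. The settings without the fold minimum or without the separation only drop a criterion. A call could not be lost under them, and they are counted among the 498. The largest dependence of the counts of called members was on the fold minimum, without which 15 instead of 5 passed in LHR+ against LHR- cells (1 up and 14 down), 1 instead of 0 at 1 h, 12 instead of 2 at 8 h (7 up and 5 down) and 16 instead of 6 at 20 h (11 up and 5 down). With genes above the median gene alone, 1 member was called in LHR+ against LHR- cells, since the other 4 lie below it. In the main fit that is 1 of 16 members above the median gene (6.25%). Of all genes, 2.69% of those above it and 6.57% of those below it were called there. Since 28 of the 44 members lie below it, the share of members called with the receptor is not matched for brightness. Leaving out 1 replicate at a time gave 4 to 7 called members in LHR+ against LHR- cells, 0 to 0 at 1 h, 3 to 5 at 4 h, 2 to 3 at 8 h and 5 to 7 at 20 h. Some calls held in every alternative in which the gene was tested and could lose its call. These were CFI, PLAT and SERPINA1 with the receptor, CD55 and TFPI2 at 4, 8 and 20 h, and CFB, THBD and PLAT at 20 h.

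The call of PLAUR at 4 h was lost with the mean of all its probe sets (0.85). That of F2RL2 with the receptor was lost likewise (-0.70, adjusted p = 0.286), and that of PLAU at 4 h with the mean of its sets (-0.96). The same setting also added calls. These were CD55 and SERPINC1 in LHR+ against LHR- cells, FGA at 4 and 8 h, and PLAU and SERPINC1 at 20 h. In LH20 against LHR- cells the same setting ended the calls of F2RL2 (-0.70, adjusted p = 0.195) and PLAUR (-0.97). The call of PLAU from 1 to 4 h was lost with that setting (-0.98) and with equal array medians (-0.98). The call of F2 from 1 to 4 h was lost in 12 of 16 settings. With the replicate number as a block, 5, 0, 4, 2 and 6 members were called in LHR+ against LHR- cells and at 1, 4, 8 and 20 h, as without it, and F2 lost its call from 1 to 4 h (adjusted p = 0.108). The labels do not say that a number marks a shared day or batch, so the numbers were not taken as pairs. Deviations of same-numbered arrays from their group means correlated at -0.23 to 0.39, not above 0.1 in every pair, while 11 of 18 arrays correlated best with their own number, a hint from the data and not from the design.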
